A study of Mus musculus with 72 samples.

Results

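The genes described here are 10 members of the p53 pathway in mouse embryonic stem cells (mESCs): Cdkn1a, Ccng1, Plk2, Plk3, Mdm2, Sesn1, Trp53inp1, Bbc3, Pmaip1 and the gene of p53 itself, Trp53. They were chosen by symbol from the 51826 genes of the count files, with earlier results of these data known. The transcription factor p53 is kept at a low level by the ubiquitin ligase Mdm2 and accumulates after DNA damage, nucleolar stress and other insults. It then activates genes that stop the cell cycle (Cdkn1a), repair or protect the cell (Sesn1, Trp53inp1) or drive apoptosis (Bbc3, Pmaip1), and it activates Mdm2, which closes a negative feedback loop. Embryonic stem cells carry abundant Trp53 mRNA while cycling rapidly.

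The cells were E14TG2a, a mouse embryonic stem cell line, exposed to 4-thiouridine (4sU), a uridine analog that enters newly made RNA and is read as T-to-C (T2C) conversions after alkylation. At each labeling time the same cultures gave a whole-cell library and a nuclear, a cytosolic and a membrane library by detergent extraction, so the 4 fractions of a culture are not independent. All libraries were poly(A)-selected, and 72 were used: 18 per fraction, from 2 independently passaged replicates per time. Labeling lasted 20, 40, 60 or 120 min in replicates 3 and 4. It lasted 60 or 120 min in replicates 5 and 6, and 15, 20 or 30 min in replicates 1 and 2. The labels give 500 µM for labeling of up to 40 min and 100 µM for all cultures of 60 and 120 min, whereas the methods and source data of the study point to 500 µM for replicates 3 and 4 at 60 and 120 min as well. The median conversion rate was 10.9% at 120 min in replicates 3 and 4 and 3.70% in replicates 5 and 6, compared with 7.62% and 2.87% after 60 min. The sources were not reconciled. The study excluded the longer labelings at the higher dose from its further analysis, because many genes in whole cells then differed from unlabeled cells. If the higher dose holds, the last time point of the main comparison below belongs to these excluded samples. The part of such a perturbation in the changes described below was not tested. On the labels, the dose in replicates 3 and 4 falls between 40 and 60 min, so that dose and time change together from 20 to 120 min and cannot be told apart. On the study's dose, it is the dose and the replicate pair that cannot be told apart. Changes with time were compared within a pair. Unlabeled cultures were not analysed here, so the reference in replicates 3 and 4 is 20 min of labeling.

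Depth ranged from 13185351 to 52975732 reads on genes per library. The 10 pluripotency markers were above 1 CPM (reads of a gene relative to the TMM-scaled library size, the usual CPM scale) in every library, whereas the summed level of the 7 fibroblast markers stayed between 0.174 and 20.2 and that of the 6 endoderm markers between 1.80 and 6.83. Mitochondrially encoded mRNAs took 0.399% to 1.63% of reads in nuclear and 4.39% to 15.3% in membrane libraries. In whole cells the libraries labelled 60 and 120 min of replicate 6 went against their labels: the share of new RNA was lower at 120 than at 60 min for 10 of 10 members, and the median share over all genes was 0.391 at 60 and 0.182 at 120 min. In replicate 5 the same medians were 0.223 and 0.408, and in the other 3 fractions of replicate 6 the share was higher at 120 min for 10 of 10 members. Whole-cell tests that use replicates 5 and 6 rest on these labels.

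The p53 protein binds as a tetramer to a response element built from a pair of decamers. The decamer consensus was searched in RefSeq promoter windows (GRCm38.p6, 250 bases before to 50 after the annotated start). It reads the same on both strands. It was found in 8.36% of all 32851 windows, and a pair of decamers with a spacer of at most 13 bases in 0.0731%. Of the members, 8 had a promoter in the table, with 12 windows, and 5 of these windows held a decamer; no sequence is shown for Trp53inp1 and Pmaip1. Cdkn1a was the only member with a pair, separated by 12 bases and beginning 73 and 51 bases before the start of the window shown. Its other window, chr17:29093519-29093818, held no decamer. Stretches with a mismatch to the consensus were not searched for. The sequences are shown because they place the motif in the genes whose levels are followed in the rest of the text. Decamers are in capitals, and every stretch is upstream of the start and written 5′ to 3′ on the strand of the gene.
Cdkn1a, chr17:29090729-29090978, plus strand: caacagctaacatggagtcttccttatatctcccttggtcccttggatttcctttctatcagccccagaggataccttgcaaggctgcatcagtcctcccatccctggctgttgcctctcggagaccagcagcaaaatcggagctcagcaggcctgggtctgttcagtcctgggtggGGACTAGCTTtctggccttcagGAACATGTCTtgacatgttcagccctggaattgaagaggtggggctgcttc
Mdm2, chr10:117710915-117710964, minus strand: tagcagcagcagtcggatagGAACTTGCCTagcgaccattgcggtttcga
Ccng1, chr11:40755442-40755491, minus strand: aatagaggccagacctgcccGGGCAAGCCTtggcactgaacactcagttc
Sesn1, chr10:41887246-41887295, plus strand: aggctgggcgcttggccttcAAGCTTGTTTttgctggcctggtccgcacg
Trp53, chr11:69580264-69580313, plus strand: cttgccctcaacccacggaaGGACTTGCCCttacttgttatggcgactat
Plk2, chr13:110394794-110395043, plus strand: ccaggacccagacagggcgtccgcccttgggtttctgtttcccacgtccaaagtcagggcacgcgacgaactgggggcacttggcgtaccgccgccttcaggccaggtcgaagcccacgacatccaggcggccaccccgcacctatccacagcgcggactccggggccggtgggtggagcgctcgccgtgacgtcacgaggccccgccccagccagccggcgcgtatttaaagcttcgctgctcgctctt
The windows of Plk2, Plk3 and Bbc3 held no decamer, which says only that these letters are not in these windows.

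At 120 min of labeling Plk2, Mdm2, Cdkn1a and Bbc3 were higher than at 20 min in the nuclei of replicates 3 and 4. A gene was called when its adjusted p was below 0.05 and its log2 fold change beyond 0.5 in either direction, by edgeR's quasi-likelihood test with Benjamini-Hochberg adjustment over all genes tested in the fraction. Each group holds 2 libraries. By this rule 4 of 10 members rose in the nucleus, where 1.56% of all genes rose. In the cytosol Plk2, Cdkn1a and Bbc3 rose, 3 of 10 members against 0.497% of all genes. With the replicate number as a block, 3 of 10 members were also called in the cytosol, while over all genes 353 rose and 691 fell in place of 81 and 89. Plk2 alone rose in the membrane fraction, against 0.0555% of all genes, and in whole cells, against 0.0712%. No member fell, against 1.35% of all genes in nuclear, 0.547% in cytosolic, 0.0185% in membrane and 0.0415% in whole-cell libraries. Counted in either direction, 2.91%, 1.04%, 0.0741% and 0.113% of all genes were called in these 4 fractions. The comparisons of 40, 60 and 120 min share the 20 min libraries.

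**Figure D1:**
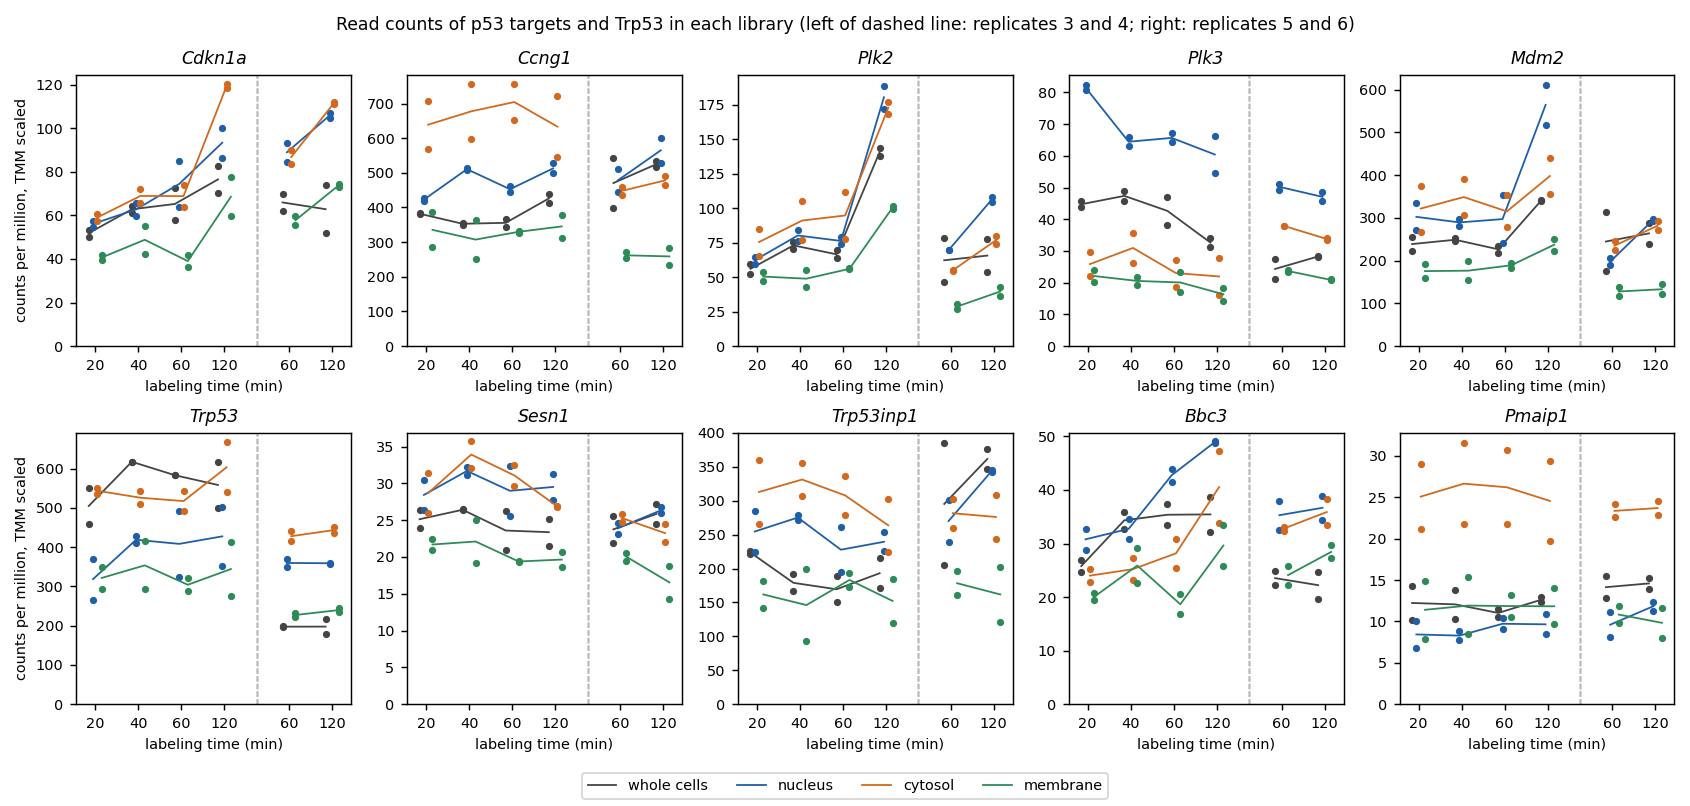
Read counts as CPM, scaled by TMM (vertical axis), of each gene by labeling time in min (horizontal axis) in whole cells, nucleus, cytosol and membrane; each point is 1 library and lines join the means of 2 replicates. In replicates 3 and 4 (left of the dashed line) both 120 min libraries of Plk2 lie above all shorter times in every fraction, and levels of Trp53 in whole cells lie between 459 and 618, above the 179 to 217 of replicates 5 and 6 (right).

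Cdkn1a (chr17:29090976-29100727, plus strand) encodes p21, the inhibitor of cyclin-dependent kinases through which p53 halts the cell cycle. In the cytosol of replicates 3 and 4 its level, in TMM-scaled CPM, was 60.7 and 57.5 at 20 min, 72.0 and 65.9 at 40 min, 63.7 and 74.0 at 60 min, and 118 and 120 at 120 min. The 120 min libraries did not overlap with any shorter time, and the log2 fold change over 20 min was 1.02 ± 0.15 (SE, adjusted p = 0.0039). For 120 against 20 min alone, 14.6% of all genes were higher without overlap in the cytosol. In the nucleus the level was 54.7 and 57.5 at 20 min and 86.5 and 100 at 120 min, with 63.9 and 85.0 at 60 min. This nuclear rise was 0.73 ± 0.15 on the log2 scale (adjusted p = 0.022). In the membrane fraction the level went from 39.4 and 41.9 to 59.6 and 77.6 (0.76 ± 0.18), which was not called by edgeR (adjusted p = 0.18) but was by DESeq2 (adjusted p = 0.028). In whole cells it went from 53.4 and 50.3 to 70.2 and 82.8 (0.56 ± 0.21, adjusted p = 0.36).

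Ccng1 (chr11:40748552-40755311, minus strand) encodes cyclin G1, a p53-induced protein that works with Mdm2. Its cytosolic level was 709 and 569 at 20 min and 721 and 546 at 120 min in replicates 3 and 4, and the groups overlapped. In the nucleus it was 428 and 417 at 20 min, 508 and 514 at 40 min, 445 and 461 at 60 min and 498 and 527 at 120 min. No comparison of Ccng1 read counts passed the test.

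Plk2 (chr13:110395046-110400844, plus strand) encodes a stress-responsive polo-like kinase and changed most of the 10 genes in each of the 4 fractions at 120 min. Its nuclear level in replicates 3 and 4 was 64.8 and 59.7 at 20 min, 76.2 and 84.1 at 40 min, 78.8 and 73.7 at 60 min, and 172 and 189 at 120 min. The 120 min nuclei thus stood 2.90-fold above the 20 min nuclei, a log2 fold change of 1.54 ± 0.21 (adjusted p = 0.0019). In the cytosol it went from 85.1 and 65.7 to 177 and 169 (1.2 ± 0.21, adjusted p = 0.011). In the membrane fraction it went from 53.6 and 47.1 to 102 and 99.1 (0.99 ± 0.17, adjusted p = 0.038). Whole cells gave 59.6 and 52.4 at 20 min and 144 and 138 at 120 min (1.33 ± 0.21, adjusted p = 0.019). In none of the 4 fractions did the 120 min libraries overlap with those of 20, 40 or 60 min. For 120 against 20 min alone, 24.7% of all genes were higher without overlap in the nucleus and 14.6% in the cytosol. In the membrane fraction this held for 14.2% and in whole cells for 20.2%.

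Plk3 (chr4:117128655-117133963, minus strand), a second polo-like kinase linked to the stress response, moved the other way without passing the test. Its nuclear level was 80.8 and 82.2 at 20 min, 63.1 and 65.8 at 40 min, 64.3 and 67.1 at 60 min and 66.1 and 54.7 at 120 min. All later nuclear libraries were below both 20 min libraries, and the log2 fold change at 120 min was -0.43 ± 0.14 (adjusted p = 0.092). Without overlap, 22.8% of all genes were lower at 120 than at 20 min in the nucleus. Plk3 overlaps Tctex1d4 on the opposite strand, as Cdkn1a overlaps AC167363.2, and the strand setting of the counting is not given in the sources used here, so reads of each pair may not be separated.

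Mdm2 (chr10:117688875-117710758, minus strand), the ubiquitin ligase that marks p53 for degradation, rose in the nucleus. There its level was 334 and 271 at 20 min, 281 and 298 at 40 min, 353 and 242 at 60 min, and 611 and 518 at 120 min in replicates 3 and 4. Only the 120 min libraries stood apart, with a log2 fold change of 0.90 ± 0.18 (adjusted p = 0.021). In the cytosol the 20 min libraries, at 376 and 268, overlapped with the 120 min libraries, at 440 and 356 (0.31 ± 0.17, adjusted p = 0.46). With the replicate block the Mdm2 value was 0.32 with an adjusted p of 0.0010, below the fold threshold. The membrane fraction gave 191 and 160 at 20 min and 251 and 224 at 120 min (0.43 ± 0.16, adjusted p = 0.50), and whole cells 255 and 222 against 342 and 340 (0.51 ± 0.21, adjusted p = 0.42). These groups did not overlap, but neither difference passed the test. From 20 to 120 min, 14.2% of all genes were higher without overlap in the membrane fraction, 20.2% in whole cells and 24.7% in the nucleus.

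Trp53 (chr11:69580359-69591873, plus strand) did not pass the test in any comparison. Its cytosolic level was 536 and 551 at 20 min and 539 and 667 at 120 min in replicates 3 and 4, and 440 and 416 at 60 min and 451 and 436 at 120 min in replicates 5 and 6. In whole cells the 8 libraries of replicates 3 and 4 lay between 459 and 618, and the 4 of replicates 5 and 6 between 179 and 217. At 20 min, a time that replicates 1 and 2 share with replicates 3 and 4, whole cells gave 204 and 237 in the former and 551 and 459 in the latter. Replicates 1 and 2 and replicates 3 and 4 thus differed in whole cells at the same labeling time and dose on the labels. The difference between replicates 3 and 4 and replicates 5 and 6 was not tested. On the study's dose, the dose and the pair cannot be told apart there.

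Sesn1 (chr10:41809935-41908424, plus strand), which encodes sestrin 1, an inhibitor of mTORC1 signaling and antioxidant protein, ranged from 25.6 to 32.4 in the 8 nuclear libraries of replicates 3 and 4. Trp53inp1 (chr4:11156431-11174379, plus strand), a regulator of autophagy and p53-dependent apoptosis, ranged from 195 to 284 in the same libraries. Neither passed the test in any fraction. Sesn1 overlaps 9930024M15Rik on the same strand, so its level is uncertain where the counting left shared reads out.

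The BH3-only genes, whose products antagonize the anti-apoptotic Bcl-2 proteins, differed from each other in what passed the test. Bbc3 (PUMA, chr7:16308393-16318205, plus strand) had a nuclear level of 28.8 and 32.8 at 20 min, 30.9 and 34.5 at 40 min, 44.0 and 41.6 at 60 min and 49.1 and 48.8 at 120 min in replicates 3 and 4. The 60 and 120 min libraries did not overlap with those of 20 or 40 min. Without overlap, 19.5% of all genes were higher at 60 than at 20 min in the nucleus, and 24.7% at 120 than at 20 min. At 60 min the log2 fold change over 20 min was 0.47 ± 0.17 (adjusted p = 0.18), and at 120 min it was 0.67 ± 0.17 (adjusted p = 0.043). In the cytosol Bbc3 went from 22.8 and 25.2 at 20 min to 33.8 and 47.2 at 120 min (0.76 ± 0.17, adjusted p = 0.037). Its membrane level, 19.4 and 20.7 at 20 min and 25.8 and 33.4 at 120 min (0.56 ± 0.18), was not called (adjusted p = 0.39). Pmaip1 (Noxa, chr18:66458533-66465565, plus strand) was the least abundant member per length in whole cells, nucleus and membrane, and its nuclear level lay between 6.80 and 10.9 in replicates 3 and 4, where the libraries of each later time overlapped with those of 20 min. The difference between Bbc3 and Pmaip1 was not tested.

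These calls rested on few libraries. Leaving out a replicate leaves 1 library at each time, and the test then assumes that this library varies like those of the other groups. Without replicate 4, no member was called in the nucleus (adjusted p = 0.057 for Plk2, 0.050 for Mdm2 and 0.081 for Cdkn1a) or in the cytosol (adjusted p = 0.064 for Plk2 and 0.054 for Cdkn1a). Without replicate 3, Bbc3 was not called in the nucleus (adjusted p = 0.20), and the Plk2 calls in whole cells and membrane were lost without either replicate. The log2 fold changes without replicate 4 remained positive, at 1.36 for Plk2, 0.83 for Mdm2, 0.62 for Cdkn1a and 0.73 for Bbc3 in the nucleus.

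**Figure D2:**
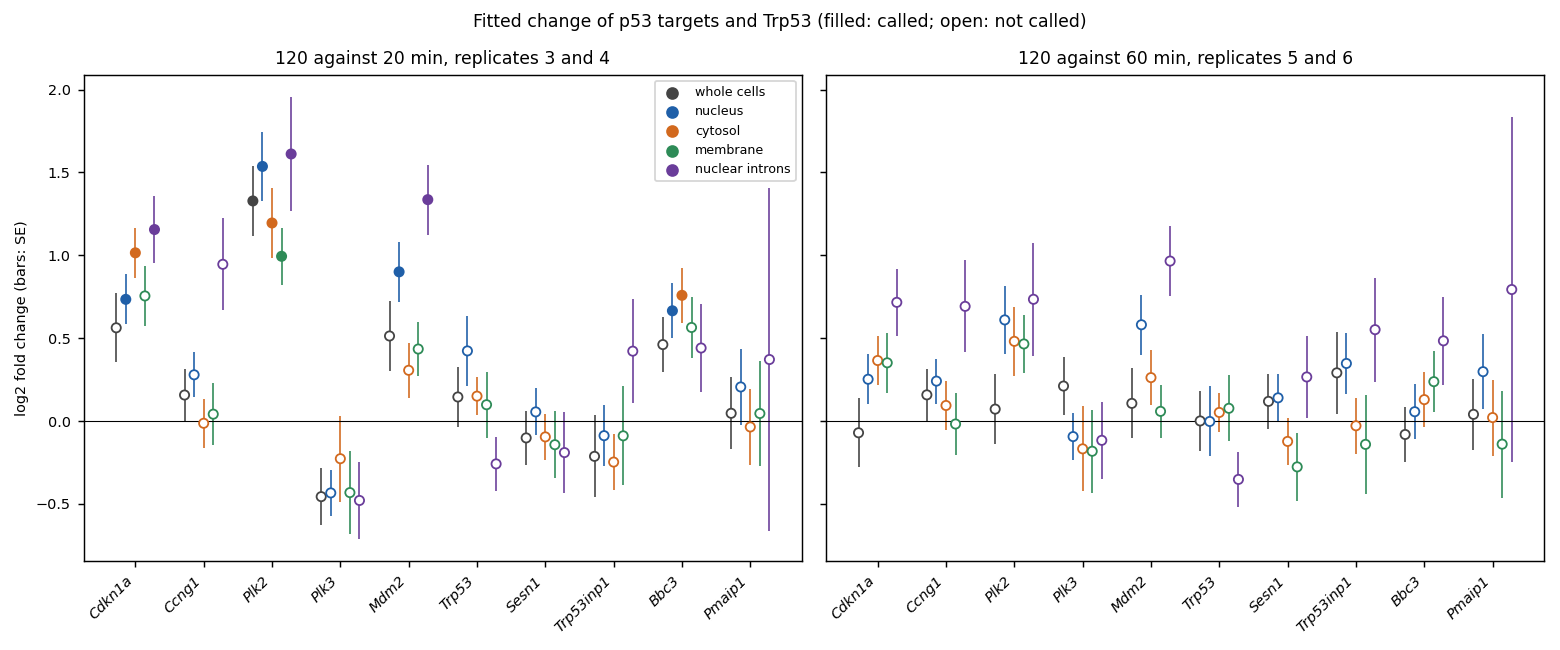
Log2 fold change with its SE (vertical axis) of each gene (horizontal axis) in 4 fractions and in nuclear introns, for 120 against 20 min in replicates 3 and 4 (left) and 120 against 60 min in replicates 5 and 6 (right); filled points passed the test. On the left Plk2 is filled in all 5 measures, from 0.99 to 1.61; on the right no point is filled.

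At 40 and 60 min no member was called in any fraction or in introns of replicates 3 and 4, and 0.0% of all genes were called. The count over all genes depended on the setting: in the nucleus at 60 min DESeq2 called 127 genes higher and 100 lower, and in introns 69 and 92. At an unadjusted p under 0.05, the 60 min comparison had 3 of 10 members in the nucleus (Bbc3, Cdkn1a and Plk3) 1 of 10 in whole cells (Bbc3) and 1 of 10 in introns (Cdkn1a), against 19.4%, 4.43% and 9.32% of all genes. DESeq2 called none of the 10. The nuclear log2 fold change of Cdkn1a at 60 min was 0.41 ± 0.15 (adjusted p = 0.19).

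Intronic sequence is removed during splicing, so nuclear intron signal follows unspliced RNA. The unit is the number of T positions in reads mapped to the introns of a gene, scaled for library size in the same way as CPM. A read carries many T, so the T count is larger than the number of reads. In replicates 3 and 4 the intron signal of Plk2, Mdm2 and Cdkn1a rose from 20 to 120 min, 3 of 10 members against 1.08% of all genes, and 0 of 10 fell against 1.93% of all genes.

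The Mdm2 intron signal was 495 and 446 at 20 min, 395 and 447 at 40 min, 574 and 392 at 60 min, and 1174 and 1203 at 120 min. It was thus 2.52-fold higher at 120 than at 20 min (1.34 ± 0.21 log2, adjusted p = 0.0021), with no rise visible by 60 min. Plk2 introns gave 17.97 and 15.70 at 20 min, 24.7 and 21.6 at 60 min and 52.5 and 50.4 at 120 min (1.61 ± 0.35, adjusted p = 0.016). Cdkn1a introns gave 29.1 and 35.8 at 20 min, 34.8 and 43.6 at 40 min, 45.5 and 43.1 at 60 min and 62.1 and 82.5 at 120 min (1.16 ± 0.20, adjusted p = 0.0046). For Cdkn1a both 60 min libraries were already above both 20 min libraries, by 0.45 ± 0.20 (adjusted p = 0.49), where 12.4% of all genes were higher without overlap. These 3 calls held without replicate 3 and without replicate 4.

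Ccng1 introns gave 65.2 and 54.4 at 20 min and 138 and 92.7 at 120 min (0.95 ± 0.28). They missed the threshold (adjusted p = 0.070) and were called by DESeq2 (adjusted p = 0.027). Trp53 introns were 460 and 524 at 20 min and 419 and 404 at 120 min, both 120 min libraries being lower, and this difference was not called. Intron signal was lower without overlap for 23.2% of all genes. Pmaip1 introns lay between 0.225 and 2.37 in replicates 3 and 4, too low to compare. The share of T positions in introns varied between nuclear libraries of replicates 3 and 4. It ran from 29.1% to 40.0% at 20 min, from 14.7% to 29.4% at 60 min and from 23.1% to 29.5% at 120 min. The part of this share in the intron result and in the nuclear read counts was not tested.

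**Figure D3:**
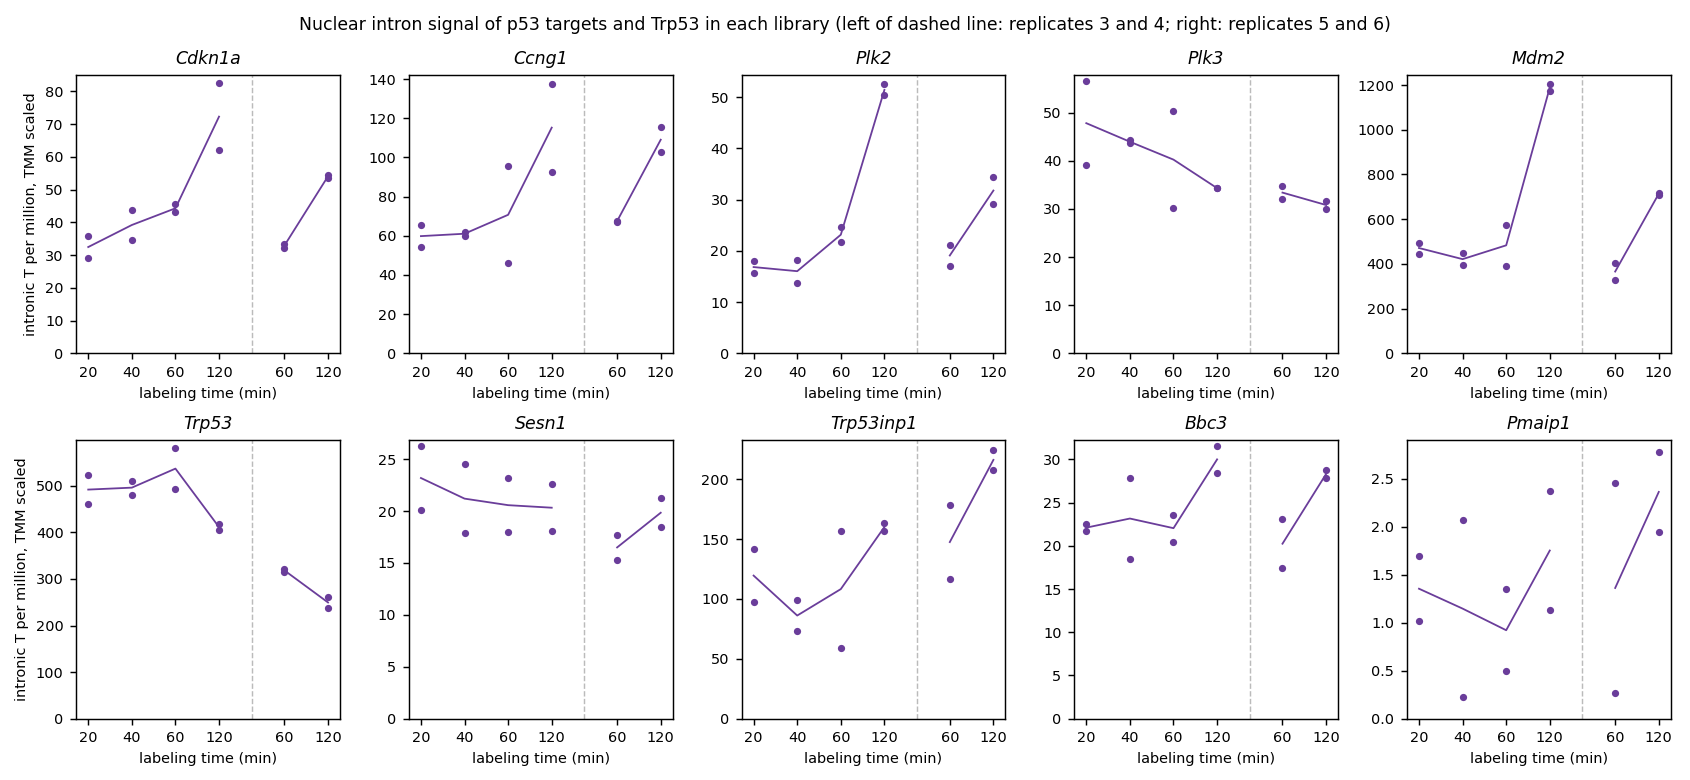
Nuclear intron signal in T positions, scaled as CPM (vertical axis), of each gene by labeling time in min (horizontal axis); each point is 1 nuclear library and lines join the means of 2 replicates. Mdm2 lies between 392 and 574 from 20 to 60 min and at 1174 and 1203 at 120 min in replicates 3 and 4, and goes from 327 and 404 at 60 min to 710 and 718 at 120 min in replicates 5 and 6.

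Replicates 5 and 6, with 100 µM in both sources, were compared between 60 and 120 min. No member was called in any of the 4 fractions or in introns, and 0.0% of all genes were. At an unadjusted p under 0.05 there were 5 of 10 members in introns (Mdm2, Ccng1, Plk2, Cdkn1a and Trp53, the last lower), against 3.74% of all genes, 2 of 10 in the nucleus (Mdm2 and Plk2), against 1.95%, and 2 of 10 in the cytosol (Plk2 and Cdkn1a), against 1.28%. Intron libraries of 7 of 10 members did not overlap and were higher at 120 min, against 19.4% of all genes; 2 of 10 did not overlap and were lower, against 18.6%.

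In these replicates Mdm2 introns went from 327 and 404 at 60 min to 710 and 718 at 120 min, a log2 fold change of 0.97 ± 0.21. edgeR gave an adjusted p of 1.0, and DESeq2 called the gene (adjusted p = 0.0034). Cdkn1a introns went from 32.3 and 33.5 to 53.6 and 54.6 (0.72 ± 0.20), Ccng1 introns from 67.2 and 67.7 to 103 and 115 (0.69 ± 0.28) and Plk2 introns from 21.1 and 17.1 to 34.5 and 29.1 (0.73 ± 0.34). In all 4 genes the 120 min nuclei were above the 60 min nuclei, and none passed the adjustment in the edgeR fit without a replicate block. Trp53 introns were 322 and 315 at 60 min and 237 and 262 at 120 min.

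Nuclear read counts of the same replicates went from 190 and 205 to 298 and 294 for Mdm2 (0.58 ± 0.18) and from 69.3 and 69.7 to 108 and 104 for Plk2 (0.61 ± 0.21). For Cdkn1a they were 93.2 and 84.7 at 60 min and 105 and 107 at 120 min (0.25 ± 0.15). In the cytosol Cdkn1a went from 83.4 and 90.1 to 111 and 112 (0.37 ± 0.15) and Plk2 from 55.4 and 54.6 to 73.9 and 79.5 (0.48 ± 0.21). Membrane libraries of Plk2 went from 27.0 and 30.4 to 36.3 and 42.9 (0.47 ± 0.17). The 120 min libraries lay above the 60 min libraries in each of these pairs of groups, without passing the test. Of the 10 members, 7 were higher without overlap in the nucleus and 1 was lower, against 25.1% and 24.6% of all genes. In the cytosol 5 were higher and 2 lower in this way, against 20.996% and 20.6% of all genes. In the membrane fraction 4 were higher and 2 lower, against 13.8% and 16.2%. In whole cells the libraries of replicate 6 disagree with their labels, and the values were 62.1 and 69.8 at 60 min and 73.8 and 51.8 at 120 min for Cdkn1a, and 46.3 and 78.1 at 60 min and 77.4 and 53.8 at 120 min for Plk2. The Plk2 level of the whole-cell library labelled 60 min of replicate 6 was thus close to that of the library labelled 120 min of replicate 5.

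Whether the change from 60 to 120 min differed between the replicate pairs was tested directly. No member was called in any fraction or in introns, where 0.00493% of all genes were called lower. With the replicate number as a block, 330 genes were called higher and 264 lower in the cytosol, none of them a member. At an unadjusted p under 0.05 there were 2 of 10 members in whole cells (Plk2 and Plk3), against 2.49% of all genes. In the nucleus there was 1 of 10 (Plk2), against 1.85%. In the cytosol, the membrane fraction and introns there were 0 of 10, against 5.71%, 1.08% and 4.08% of all genes. The difference of the changes was 0.63 ± 0.29 on the log2 scale for nuclear Plk2, 0.34 ± 0.26 for nuclear Mdm2, 0.42 ± 0.48 for Plk2 introns and 0.33 ± 0.29 for Mdm2 introns, each larger in replicates 3 and 4 (adjusted p = 1.0 for each). For whole-cell Plk2 it was 1.01 ± 0.30 (adjusted p = 1.0), a value that rests on the library labels of replicate 6 and was 0.36 without that replicate.

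Other genes of the pathway were read from a list of 43 further p53 targets and a list of 22 regulators. Both lists were chosen with earlier results of these data known, so their counts are a description and not an independent test. In the nuclei of replicates 3 and 4 at 120 min, 6 of 43 targets rose and 1 of 43 fell, where 1.56% of all genes rose and 1.35% fell. The target list had a median log2 fold change of 0.24, against 0.02 over all genes and 0.35 for the 10 members. Btg2, an antiproliferative gene, rose by 1.04 ± 0.12 (adjusted p = 0.00080). Ddit4l, an inhibitor of mTOR signaling, rose by 0.97 ± 0.17 and Phlda3, an inhibitor of Akt, by 0.81 ± 0.16. Abhd4 rose by 0.84 ± 0.17 and Aen, an apoptosis-enhancing nuclease, by 0.59 ± 0.13. With library totals alone neither Abhd4 (adjusted p = 0.060) nor Aen (adjusted p = 0.058) was called. Ddit4l was not called without replicate 3 (adjusted p = 0.050) or replicate 4 (adjusted p = 0.071), Abhd4 not without replicate 3 (adjusted p = 0.053) and Aen not without replicate 4 (adjusted p = 0.16). None of the 22 regulators was called in the nucleus, and their median was 0.09.

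In nuclear introns 9 of 42 targets rose and 1 of 42 fell, where 1.08% of all genes rose and 1.93% fell, with a median of 0.50 against -0.03 over all genes. Phlda3 rose by 1.61 ± 0.25, Abhd4 by 1.53 ± 0.25 and Zfp365 by 1.74 ± 0.33. The p53 family gene Trp73 rose by 1.34 ± 0.28 and Foxo3, a stress-responsive transcription factor, by 1.31 ± 0.28. Without replicate 4 these were 0.76 for Trp73 (adjusted p = 0.25) and 0.80 for Foxo3 (adjusted p = 0.062), and neither was called. Of the 22 regulators 1 fell, Atr, a kinase of the DNA damage response, by -1.04 ± 0.28 (adjusted p = 0.046). The Atr call was lost with DESeq2 size factors (adjusted p = 0.071), with library totals (adjusted p = 0.054) and with only the 12 libraries of replicates 3 to 6 (adjusted p = 0.16). In the cytosol and the membrane fraction Btg2 alone of the 43 targets was called, with 0.95 ± 0.14 and 0.82 ± 0.15, the membrane call being lost without replicate 3 (adjusted p = 0.13) or replicate 4 (adjusted p = 0.30), and in whole cells 0 of 43 targets and 0 of 22 regulators were.

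**Figure D4:**
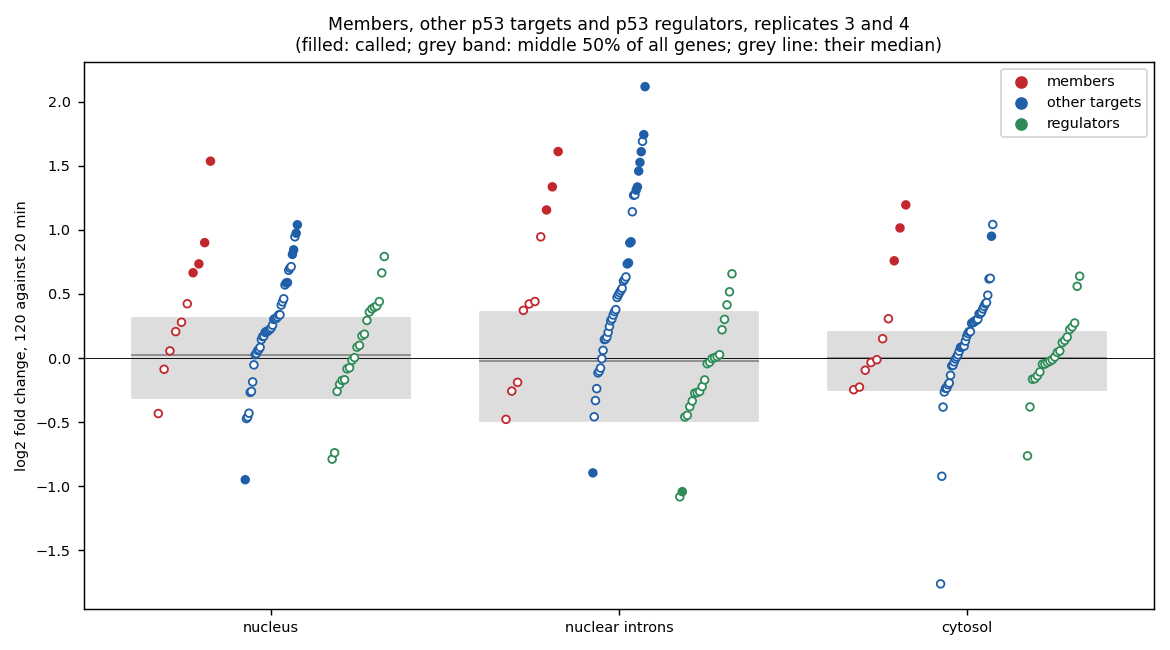
Log2 fold change from 20 to 120 min in replicates 3 and 4 (vertical axis) in nucleus, nuclear introns and cytosol (horizontal axis) for the 10 members, 43 other p53 targets and 22 regulators, each point being 1 gene and filled points having passed the test; the grey band is the middle 50% of all genes and the grey line their median. Filled points above 0 number 4 members and 6 targets in the nucleus, 3 members and 9 targets in introns, and 3 members and 1 target in the cytosol.

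The genes whose read counts were most like those of Cdkn1a were ranked by Pearson's r of log2 CPM over the 48 libraries of replicates 3 to 6, centred within each fraction and replicate pair. Among 15225 genes these were Btg2 (r = 0.89), Gm18025 (0.87), Bbc3 (0.86), Gm6210 (0.86) and Eif4a-ps4 (0.85). For Mdm2 they were Plk2 (0.86), Gm10031 (0.83), Gm12183 (0.81), Zfp870 (0.80) and Plpbp (0.78). The libraries share cultures and labeling times, so r is a description. Cdkn1a and Mdm2 themselves had r = 0.50. Plk3 had negative r with both, -0.42 with Cdkn1a and -0.47 with Mdm2. Symbols that begin with Gm or end in -ps4 include pseudogenes, whose reads can be split with near-identical copies.

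Levels of the members were compared with each other per kilobase of exon. Over the 12 nuclear libraries of replicates 3 to 6, Ccng1 was highest, with 140 ± 15.0 (TMM-scaled CPM divided by the exon length in kilobases, SD over libraries), above 98.4% of 17781 genes. It was followed by Trp53 with 94.4 ± 16.6, Mdm2 with 63.8 ± 24.2 and Trp53inp1 with 41.5 ± 7.08. Trp53 and Mdm2, and Mdm2 and Trp53inp1, overlapped within 1 SD. Plk3 (24.3 ± 4.78), Cdkn1a (22.6 ± 5.40), Plk2 (21.3 ± 9.40) and Bbc3 (17.8 ± 3.18) did not separate from their neighbors in this order. Sesn1 (7.07 ± 0.81) and Pmaip1 (3.51 ± 0.61) were lowest. In the cytosol the first 4 places were the same, with Ccng1 at 170 ± 34.2 and Trp53 at 126 ± 17.2, whereas Plk3 (11.4 ± 2.87) stood below Cdkn1a (24.1 ± 6.72), Plk2 (20.98 ± 8.999) and Bbc3 (14.6 ± 3.31).

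The second measure was the share of new RNA, the T2C share of a gene divided by the conversion rate of the library. A value near 1 means that about all RNA of the gene carried the label. It can exceed 1 because the rate is estimated per library and no background was subtracted. The members spanned most of the range between high and low shares. In the cytosol of replicates 3 and 4 the Cdkn1a share was 0.134 and 0.198 at 20 min, 0.380 and 0.350 at 40 min, 0.756 and 0.596 at 60 min and 1.05 and 1.02 at 120 min. Over the 12 cytosolic libraries of replicates 3 to 6 it stood above 93.7% to 98.6% of genes.

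Plk2 had a cytosolic share of 0.146 and 0.254 at 20 min, 0.643 and 0.571 at 60 min and 1.00 and 0.984 at 120 min. Mdm2 had 0.0440 and 0.118 at 20 min, 0.432 and 0.366 at 60 min and 0.926 and 0.919 at 120 min. Bbc3 had 0.0775 and 0.167 at 20 min and 0.942 and 0.807 at 120 min. In Plk2 and Mdm2, as in Cdkn1a, nearly all cytosolic mRNA was new after 120 min, and in Bbc3 most of it was. These were the 4 genes called in the nucleus at 120 min. A gene whose level rises during labeling gains new RNA, so rise and turnover cannot be told apart in these shares. For comparison, the median gene of the cytosol stood at 0.239 and 0.254 at 120 min.

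Ccng1 was closer to the median gene: its cytosolic share was 0.0347 and 0.0459 at 20 min, 0.167 and 0.125 at 60 min and 0.413 and 0.378 at 120 min. From 40 min on Trp53 had the lowest cytosolic share of the 10 genes in every library of replicates 3 to 6, with 0.0285 and 0.0288 at 60 min and 0.0873 and 0.0832 at 120 min in the cytosol of replicates 3 and 4, and 0.143 and 0.135 at 120 min in replicates 5 and 6. Its median percentile among all genes was 14.8 for cytosolic, 18.1 for membrane and 18.6 for nuclear exons. Plk3, Sesn1, Trp53inp1 and Pmaip1 lay between, at 0.409 to 0.745 in the cytosol at 120 min in replicates 3 and 4.

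**Figure D5:**
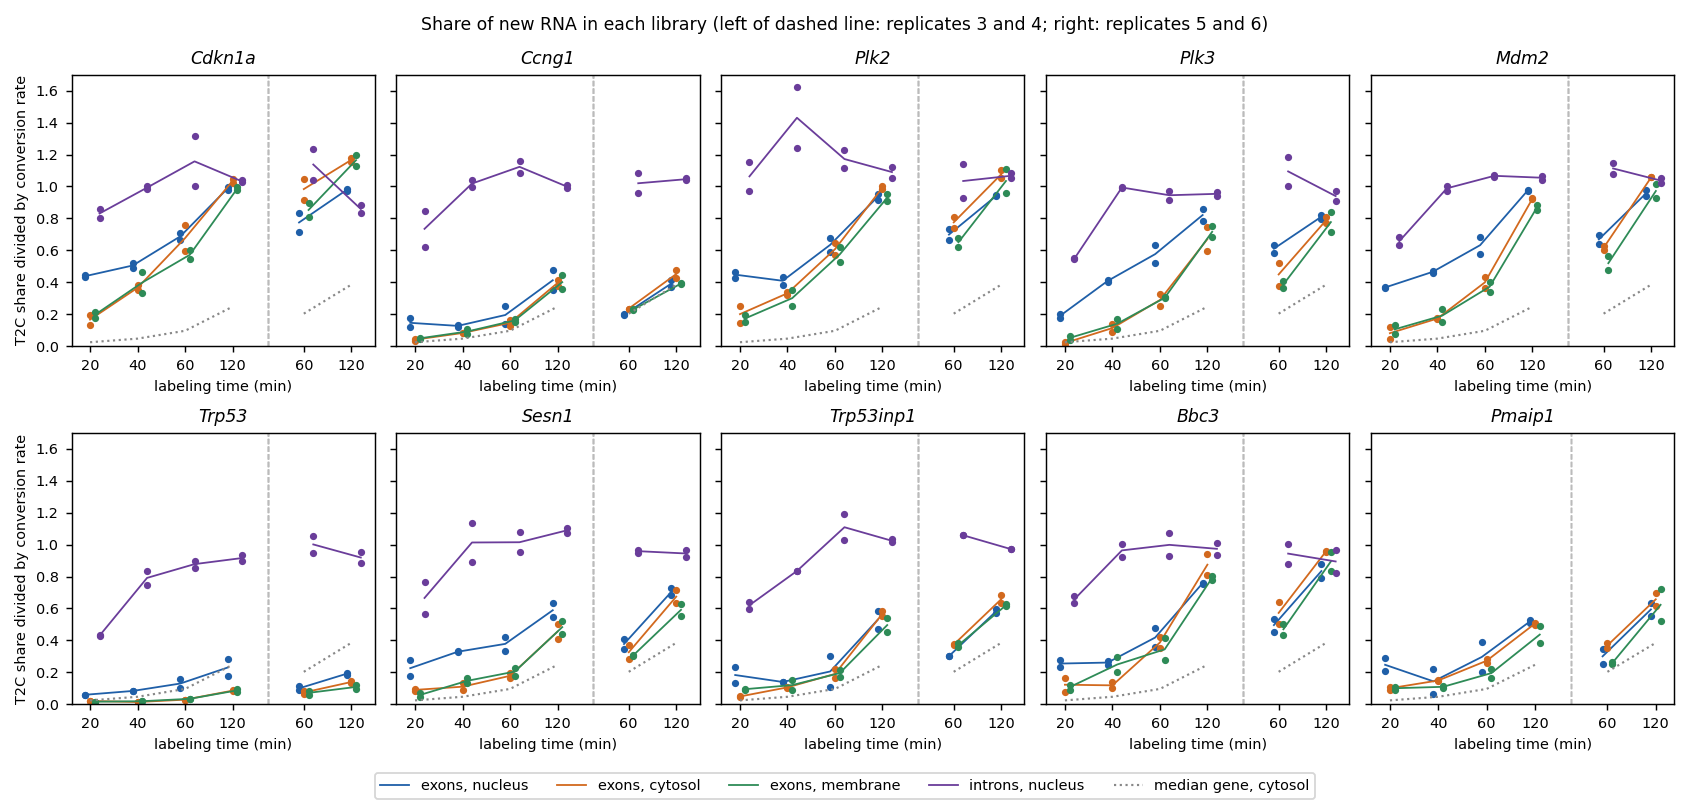
Share of new RNA, the T2C share divided by the conversion rate of the library (vertical axis, no unit), of each gene by labeling time in min (horizontal axis) in exons of nucleus, cytosol and membrane and in nuclear introns; each point is 1 library, lines join the means of 2 replicates and the dotted line is the mean of the median gene's share in the cytosol. Intron shares of Pmaip1 are left out for low T counts. Exons of Cdkn1a, Plk2 and Mdm2 reach between 0.855 and 1.05 at 120 min in replicates 3 and 4, while Trp53 stays between 0.0781 and 0.281.

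Nuclear and cytosolic exon shares were compared over the 12 cultures of replicates 3 to 6 with limma on log2(share + 0.01), with the culture as a block. The fit pools labeling times and both replicate pairs into 1 difference per gene, although the sign can differ between pairs. At 120 min the mean nuclear minus cytosolic share of Mdm2 was 0.0515 in replicates 3 and 4 and -0.0976 in replicates 5 and 6. The nuclear share was higher for 4 of 10 members, where 70.0% of all genes were called higher, and lower for none, where 1.08% were called lower. For Trp53 the difference was 1.18 ± 0.21 on the log2 scale (adjusted p = 8.1e-05), higher in 12 of 12 cultures, for example 0.0607 and 0.0580 in the nucleus against 0.0194 and 0.0222 in the cytosol at 20 min. Plk3 (1.06 ± 0.27), Sesn1 (0.74 ± 0.20) and Mdm2 (0.71 ± 0.23, adjusted p = 0.0098) followed, higher in 11, 11 and 10 of 12 cultures. Without replicate 3, Mdm2 (adjusted p = 0.094) and Sesn1 (adjusted p = 0.058) were not called, and Mdm2 was also not called without replicate 4 (adjusted p = 0.080).

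Cdkn1a (0.20 ± 0.17, higher in 5 of 12), Plk2 (0.18 ± 0.15, 6 of 12) and Bbc3 (0.28 ± 0.19, 6 of 12) were not called, and neither was Ccng1 (0.36 ± 0.22, 7 of 12). In replicates 3 and 4 the nuclear and cytosolic shares of Cdkn1a lay apart at 20 min and close together at 120 min. At 20 min the nuclear share, 0.433 and 0.444, was above the cytosolic 0.134 and 0.198. At 120 min in the same replicates the nuclear share was 0.997 and 0.981 and the cytosolic 1.05 and 1.02. These late values lie near 1 and each is divided by the rate of its own library, 10.4% and 12.2% in the nucleus and 8.83% and 11.4% in the cytosol. Their order is therefore not read as a difference. Between membrane and cytosol no member was called in either direction, where 1.27% of genes were called higher and 7.25% lower. Pmaip1 (-0.28 ± 0.10, adjusted p = 0.083) and Plk2 (-0.13 ± 0.06, adjusted p = 0.15) were lower in the membrane fraction in 10 and 9 of 12 cultures.

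Nuclear introns were labeled ahead of nuclear exons for 9 of the 9 members with at least 400 T positions in every library, where 95.6% of all genes were called higher and 0.0866% lower; Pmaip1 did not reach this minimum. The difference was largest for Trp53 (2.64 ± 0.15), Ccng1 (2.11 ± 0.17) and Trp53inp1 (1.71 ± 0.20). It was 1.19 ± 0.13 for Sesn1, 0.97 ± 0.16 for Bbc3, 0.80 ± 0.16 for Plk2 and 0.78 ± 0.14 for Plk3. The smallest differences were those of Mdm2 (0.60 ± 0.12) and Cdkn1a (0.50 ± 0.13, adjusted p = 0.0011), the latter near the threshold of 0.5 and higher in introns in 10 of 12 cultures. Without replicate 3 the Cdkn1a difference was 0.45, without replicate 4 it was 0.39, and with a pseudocount of 0.05 it was 0.48, each below the threshold. In Trp53 the intron share was 0.425 and 0.434 at 20 min and 0.897 and 0.935 at 120 min in replicates 3 and 4, beside nuclear exon shares of 0.0607 and 0.0580 and of 0.281 and 0.180. In Cdkn1a introns were already at 0.800 and 0.861 at 20 min.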

How the data were processed

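Poly(A)-selected stranded libraries were, per the labels and the study's methods, aligned by the authors with STAR 2.7.6 to mm10 (GRCm38, GENCODE M14), and reads per gene were counted with HTSeq 0.11.1 without a stated strand setting. The deposited counts were used as whole numbers. The special rows of HTSeq took 30.4% to 48.8% of each library and were left out. The deposited T2C tables hold counts of T and of T2C per gene in exons and introns, a conversion rate, estimated by the authors for each library with a binomial mixture and given as a fraction, and a ratio the authors made as T2C / T / conversion rate, here called the share of new RNA. Counts in the 18 libraries of a fraction were fitted together with edgeR 4.0.16 (R 4.3.3), 9 groups of 2 libraries, filterByExpr and TMM; SE is the log2 fold change over the root of the quasi-likelihood F. Intronic T counts were fitted in the same way. Shares were fitted with limma 3.58.1. Alternatives were DESeq2 1.42.0, other scalings and filters, a replicate block and leaving out replicates. Scripts were tested on simulated data. The p values of edgeR measure the spread between the 2 passages of a group, taken over all 9 groups, in 1 line. Those of limma measure how a difference between fractions, or between introns and exons, varied over the 12 cultures of that line. Same-numbered samples of replicates 3 and 4 deviated together at every time in the cytosol only, and the fit without a replicate block was kept, with the block as an alternative. Coordinates are from GENCODE M21, the same build. All 10 members are named; of the other lists, at most 5 called genes per comparison by smallest adjusted p. The members and lists were chosen with earlier results of these data known.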

Additional observations from a re-analysis of the deposited data

Results flagged for a closer look

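Signs that differed between the replicate pairs are given as values, and the difference was not tested except where stated. With 2 cultures a pair, opposite signs are common by chance. At 60 min the nuclear minus cytosolic exon share was above 0 in both cultures of replicates 3 and 4 and below 0 in both of replicates 5 and 6 for Ccng1 (mean 0.0487 and -0.0376), Plk2 (0.0276 and -0.0766) and Bbc3 (0.0312 and -0.0763). At 120 min the same held for Mdm2 (0.0515 and -0.0976). The median cytosolic exon share over all genes at 60 min was 0.0940 and 0.0977 in replicates 3 and 4. In replicates 5 and 6 it was 0.216 and 0.190. The nuclear medians at 60 min were 0.287 and 0.203 in replicates 3 and 4 and 0.263 and 0.230 in replicates 5 and 6. The part of this difference over all genes in the signs of the members was not tested. The membrane minus cytosolic share at 60 min had opposite signs for Ccng1 (0.0150 and -0.0051) and Trp53 (0.0054 and -0.0023). The Plk3 level in whole cells had a log2 ratio of 120 over 60 min of -0.39 in replicates 3 and 4 and 0.22 in replicates 5 and 6. Its difference was -0.60 ± 0.24 in edgeR (adjusted p = 1.0), and it includes the libraries of replicate 6 whose shares go against their labels.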

How the results depend on the processing

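With 2 libraries a group, each call for 120 against 20 min rests on 4 libraries. Of the nuclear libraries, that of 20 min in replicate 4 had most reads on genes, 52975732. That of 120 min in replicate 3 had fewest, 14384152. The nuclear libraries of 20 min in replicate 3 and 120 min in replicate 4 had 18138975 and 22811132. The part of depth was not tested. Leaving out a replicate leaves 1 library a group, assumed to vary like the others. With library totals only, the members called at 120 against 20 min were 2 in the nucleus in place of 4, 0 in whole cells and 0 in the membrane fraction. The membrane count was 2 with DESeq2, 2 with the replicate block and 0 with only the 12 libraries of replicates 3 to 6. For 120 against 60 min in replicates 5 and 6, introns gave 1 called member (Mdm2) with DESeq2 and 1 with the replicate block. Leaving out 1 replicate gave 0 to 3 called members in the nucleus, 0 to 3 in the cytosol, 0 in whole cells, 0 in the membrane fraction and 3 to 4 in introns at 120 against 20 min. At 40 min it gave 0 to 1 in the nucleus and 0 to 1 in introns, the call being made without replicate 4. For nuclear against cytosolic shares it gave 2 to 4, and for introns against exons 8 to 9. The replicate block changed no other count of members by more than 1.5 times. The deviations of same-numbered samples in replicates 3 and 4 correlated at 0.24 to 0.33 in the cytosol, which meets the bar of 0.1 set for a pairing, and at -0.08 to 0.20 in whole cells, -0.04 to 0.44 in the nucleus, 0.08 to 0.34 in the membrane fraction and 0.0089 to 0.084 in introns, which do not. In replicates 1 and 2 they were 0.34 to 0.38 in the nucleus, 0.32 to 0.38 in the cytosol and 0.30 to 0.39 in the membrane fraction. The number of all genes called at 120 against 20 min was more sensitive: in the nucleus 277 rose and 241 fell, with library totals 147 and 401, with DESeq2 490 and 485, with no filter 454 and 788, with 12 libraries 125 and 110 and with the block 876 and 927. In the cytosol 81 rose and 89 fell, with library totals 94 and 187, with DESeq2 115 and 160, with no filter 163 and 273, with 12 libraries 33 and 15 and with the block 353 and 691. In introns 219 rose and 391 fell, with DESeq2 size factors 235 and 259, with library totals 199 and 200, with DESeq2 549 and 757, with no filter 359 and 736, with 12 libraries 86 and 69 and with the block 656 and 1153. In the membrane fraction 9 rose and 3 fell, with library totals 3 and 2, with DESeq2 25 and 11, with no filter 83 and 33, with 12 libraries 1 and 0 and with the block 31 and 15. In whole cells 12 rose and 7 fell, with library totals 7 and 5, with DESeq2 45 and 68, with no filter 70 and 157, with 12 libraries 26 and 31 and with the block 10 and 21. Library totals gave a median log2 fold change over all genes of -0.13 in place of 0.02 in the nucleus at 120 against 20 min. At 40 and 60 min the nucleus had 0 calls, but with the block 789 rose and 300 fell at 40 min and 575 and 495 at 60 min, with DESeq2 45 and 10 and then 127 and 100, without replicate 4 1299 and 744 at 40 min, and without replicate 3 654 and 705 at 60 min. Leaving out the whole-cell libraries of replicate 6, or the whole-cell 60 min library of replicate 5, were alternatives chosen after seeing the data and changed no count of members.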
